A study of Rattus norvegicus with 12 samples.

Results

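A set of 8 genes of cholinergic and oculomotor neurons was followed in the periaqueductal grey of 12 male Sprague Dawley rats: Chat, Slc18a3, Slc5a7, Ache, Isl1, Phox2a, Prph and Calca. These 8 genes, out of 41596 in the series, were taken as a list of symbols. The saline group holds 6 rats labelled saline-sired and the morphine group 6 labelled morphine-sired, and the labels name no treatment of the offspring themselves. Age, morphine dose, litter and sire are not given, so the p-values treat the 12 rats as independent. Polyadenylated RNA of dissected tissue was sequenced, and each library is called by its group and number (saline-sired 1 to 6, morphine-sired 1 to 6), where the number is only a name. Levels are TPM, the deposited unit of transcript abundance corrected for length and depth, summed over the transcripts of a gene. A difference is the morphine group's mean log2(TPM + 1) less that of the saline group, given ± its standard error.

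Cholinergic neurons make acetylcholine with choline acetyltransferase (Chat), load it into vesicles with the vesicular acetylcholine transporter (Slc18a3) and take choline back up with the high-affinity choline transporter (Slc5a7). Acetylcholinesterase (Ache) splits the released transmitter and is also made by cells that are not cholinergic. The oculomotor and trochlear nuclei, whose motor neurons are cholinergic and move the eye, lie at the ventral edge of the periaqueductal grey. Cholinergic neurons of the laterodorsal tegmentum lie near its caudal end. Isl1 and Phox2a encode homeodomain transcription factors of cranial motor neurons, and Phox2a is required for the oculomotor and trochlear nuclei to form. Prph encodes peripherin, an intermediate filament protein of neurons with axons in peripheral nerves, and Calca encodes calcitonin and the peptide CGRP, which many motor neurons contain.

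The libraries that stood apart in these genes are given first, and there were 3. Chat was at 0.0955 in saline-sired 1, 0.569 in saline-sired 6 and 1.15 in morphine-sired 1, against 17.1 to 36.4 in the other 9 libraries. Slc18a3 was at 1.19, 0.724 and 2.103 in these libraries and at 20.5 to 54.1 in the others. Slc5a7 was at 2.52, 1.90 and 2.46, against 12.4 to 45.4. The 3 libraries come from both groups. Their depth was 4.39, 4.75 and 5.96 gigabases, against 4.45 to 6.03 in the other 9, so that saline-sired 1 was the shallowest of all. The neuronal gene Snap25 was at 1812 to 2090 in them and at 1715 to 2079 in the others. The rest of the neuronal list overlapped too, with shifts both ways. Syt1 was mostly higher in them (321 to 374 against 211 to 329) and Stmn2 mostly lower (423 to 444 against 426 to 492). Rbfox3 was at 63.9 to 77.7 against 62.7 to 102, and Map2 at 242 to 416 against 224 to 385. In bulk tissue, fewer cells of a type and less RNA per cell cannot be told apart. The differences of the 7 tested members are given with and without these libraries, which were picked by the levels of these genes themselves.

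Among the enzymes and transporters, Chat ran from 0.0955 through a median of 25.3 to 31.8 in the saline group and from 1.15 through 18.7 to 36.4 in the morphine group. The mean was nearly the same in both, at 18.7 ± 14.5 and 18.9 ± 11.2 (SD, n = 6 each). The groups overlapped over most of their range. Slc18a3 had a mean of 28.2 ± 21.8 and 28.1 ± 17.0, and Slc5a7 one of 22.1 ± 15.7 and 21.8 ± 15.1 (SD, n = 6 each). Morphine-sired 3 was the highest library for all 3 genes. Over the 9 libraries with high levels, the ratio of Slc18a3 to Chat was 1.20 to 1.59 with a median of 1.54, and the ratio of Slc5a7 to Chat was 0.653 to 1.44 with a median of 1.16. The files place Slc18a3 as a model of 1 exon on chromosome 16 (8682669 to 8685529, minus strand, Rnor_6.0), inside the span of Chat (8577840 to 8686131, minus strand), where it lies wholly within the first intron of the longest Chat model (8681102 to 8686029). Reads of unspliced Chat over that intron could be counted to Slc18a3, and their share was not tested.

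**Figure D1:**
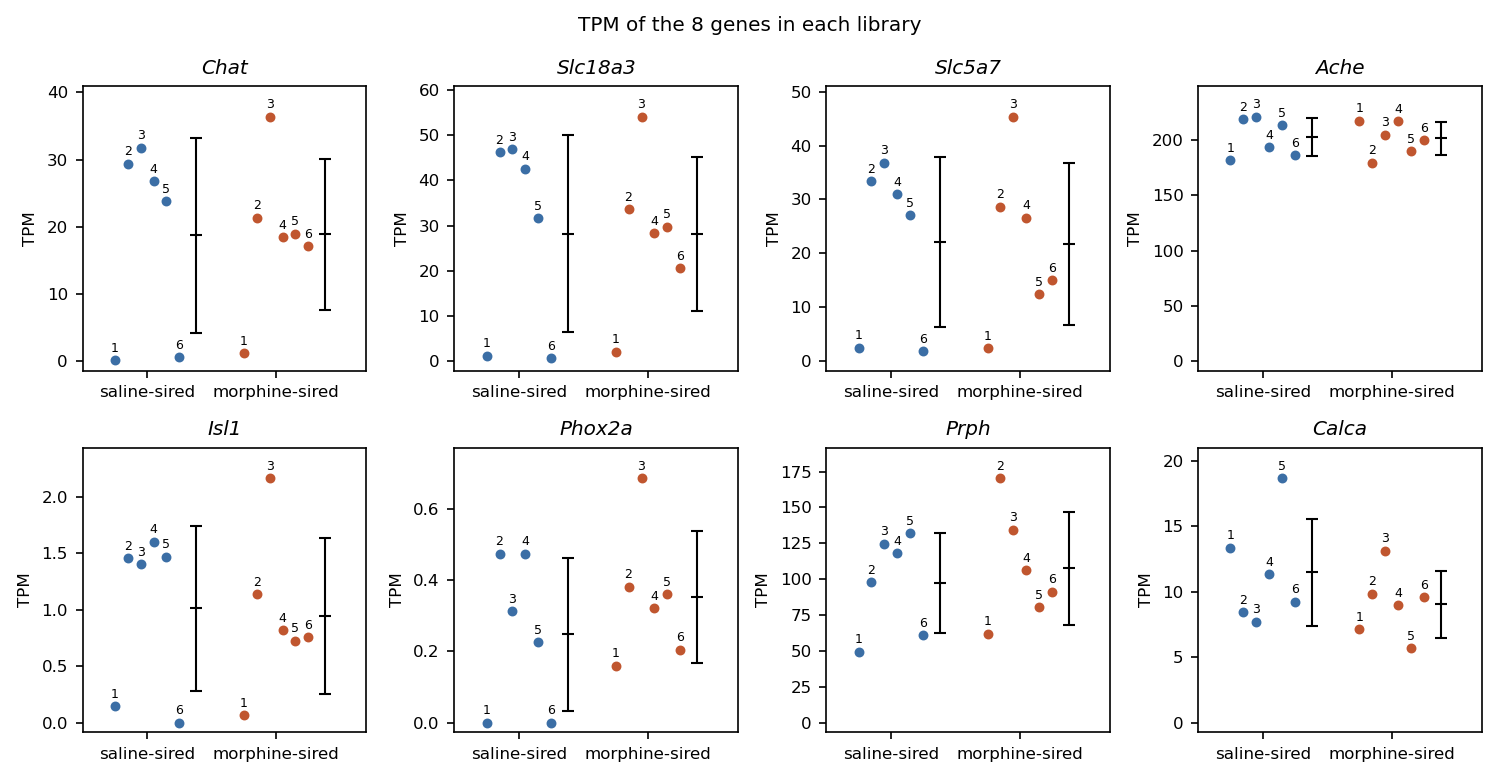
TPM (y axis) of the 8 genes in each library, by group (x axis), with the library number above each point and the group mean ± SD (n = 6) as a black bar. Saline-sired 1, saline-sired 6 and morphine-sired 1 lie at the bottom for Chat, Slc18a3, Slc5a7, Isl1, Phox2a and Prph, and within the range of the other libraries for Ache and Calca.

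Ache did not follow this pattern. It was the most abundant of the 8 genes, at 182 to 221 in the saline group and 180 to 218 in the other, with means of 203 ± 17.4 and 202 ± 15.0 (SD, n = 6 each). In saline-sired 1, saline-sired 6 and morphine-sired 1 it was at 182, 187 and 218, within the range of the others. Its coefficient of variation over the 12 libraries was 7.68%, against 65.7% for Chat, 66.2% for Slc18a3 and 66.9% for Slc5a7. On the log2 scale, the spread within groups of Ache was larger than that of 16.2% of the 24540 genes tested. That of Chat was larger than that of 99.6%, that of Slc18a3 than 99.6% and that of Slc5a7 than 99.3%. The level of Ache was 5.63 to 11.8 times that of Chat in the 9 libraries where Chat was high.

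The promoter windows are shown for Chat, Slc18a3 and Slc5a7, which were low in the same libraries, and for Ache, which was not. Isl1, Phox2a and Prph were also lowest in those libraries, and their windows are not printed. All 8 genes matched RefSeq windows of the GRCr8 build, from 250 bases before to 50 after the annotated start, and 4 are printed 5′ to 3′. Capitals mark matches on either strand. The letters searched were TATAAA for the TATA box and TAAT for the core of homeodomain sites. For the shortened cyclic AMP response element they were TGACG, and for the GC box they were GGGCGG. The windows are chr16:7723367-7723666 for Chat, chr16:7722765-7723064 for Slc18a3, chr9:7953460-7953759 for Slc5a7 and chr12:25050361-25050660 for Ache, all on the minus strand.
Chat: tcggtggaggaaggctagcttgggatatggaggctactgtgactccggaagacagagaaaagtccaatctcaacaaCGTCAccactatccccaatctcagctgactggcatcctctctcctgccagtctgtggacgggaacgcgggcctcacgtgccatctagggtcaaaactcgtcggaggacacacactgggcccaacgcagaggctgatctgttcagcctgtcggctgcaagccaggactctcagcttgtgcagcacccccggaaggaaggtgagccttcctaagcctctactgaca
Slc18a3: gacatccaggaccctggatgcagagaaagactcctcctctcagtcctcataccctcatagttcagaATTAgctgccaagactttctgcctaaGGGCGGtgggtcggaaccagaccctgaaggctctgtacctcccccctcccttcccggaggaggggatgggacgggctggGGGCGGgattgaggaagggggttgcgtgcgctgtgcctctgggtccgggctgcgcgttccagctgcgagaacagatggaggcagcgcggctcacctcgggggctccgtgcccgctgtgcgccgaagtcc
Slc5a7: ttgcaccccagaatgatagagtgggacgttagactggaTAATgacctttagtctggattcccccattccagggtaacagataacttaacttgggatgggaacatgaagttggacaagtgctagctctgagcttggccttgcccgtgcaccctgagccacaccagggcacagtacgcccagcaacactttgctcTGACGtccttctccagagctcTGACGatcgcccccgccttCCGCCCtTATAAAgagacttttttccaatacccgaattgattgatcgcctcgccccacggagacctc
Ache: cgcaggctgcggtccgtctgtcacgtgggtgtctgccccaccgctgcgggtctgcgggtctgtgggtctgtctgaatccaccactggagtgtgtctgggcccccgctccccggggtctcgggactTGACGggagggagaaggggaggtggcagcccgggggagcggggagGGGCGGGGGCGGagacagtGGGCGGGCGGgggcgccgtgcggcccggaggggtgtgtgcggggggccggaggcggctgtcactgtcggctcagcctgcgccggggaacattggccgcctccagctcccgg
The starts of Chat and Slc18a3 are 602 bases apart. Of these 4 windows, that of Slc5a7 holds the only TATAAA, which 14.2% of the 33469 windows of this length hold. TGACG or its complement occurs once for Chat, 2 times for Slc5a7 and once for Ache, and in 21.2% of all windows. GGGCGG or its complement occurs 4 times for Ache, some of them overlapping, 2 times for Slc18a3, once for Slc5a7 and in 33.1% of all windows. TAAT or its complement, present in 60.6% of all windows, occurs once for Slc18a3 and once for Slc5a7. The window of Ache is 75% G and C, more than 96.8% of all windows, against 57.3% for Chat, 64.3% for Slc18a3 and 53% for Slc5a7. A match is a description of the letters and not a binding site.

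The transcription factor genes were low. Isl1 was listed at 0 in saline-sired 6. Its level was 0.148 for saline-sired 1 and 0.0646 for morphine-sired 1. The other 4 libraries of the saline group lay between 1.403 and 1.602, and the other 5 of the morphine group between 0.725 and 2.17. Morphine-sired 2, 4, 5 and 6 (1.14, 0.821, 0.725 and 0.758) lay below those 4, while morphine-sired 3 was the highest of all. Phox2a was listed at 0 in saline-sired 1 and 6 and reached 0.160 in morphine-sired 1, against 0.205 to 0.687 in the others. Its mean of 0.300 lay below the minimum of 0.5 set for testing. The mean read depth per base was at most 5.13 for Isl1 and 1.63 for Phox2a, so these levels rest on few reads.

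Prph and Calca, whose products are also made outside motor neurons, behaved differently from each other. Prph was at 49.4, 61.0 and 62.1 in saline-sired 1, saline-sired 6 and morphine-sired 1 and at 80.6 to 170 in the other 9 libraries. It was thus lowest in the same libraries as Chat, but still abundant there. Its means were 97.3 ± 34.6 for the saline group and 108 ± 39.3 for the morphine group (SD, n = 6 each), and morphine-sired 2 was the highest. Calca ran from 7.73 through a median of 10.3 to 18.7 in the saline group and from 5.68 through 9.29 to 13.2 in the morphine group. Saline-sired 1 had the second highest value of all (13.4), and all 3 libraries with little Chat held Calca within the range of the others. On Rnor_6.0 the files place Slc5a7 on chromosome 9 (5293378 to 5330989, minus strand), Ache on 12 (22472358 to 22478753, minus), Isl1 on 2 (48487736 to 48501436, minus) and Phox2a on 1 (166893734 to 166898252, plus). Prph lies on chromosome 7 (140742418 to 140746197, plus) and Calca on 1 (184184020 to 184188911, minus).

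The groups were compared to see whether the sire's exposure to morphine goes with other levels of these genes. Of the 7 members tested, 0 had a limma p under 0.05 after adjustment over 24540 genes, and neither had any other gene of the series (0%). At an unadjusted p under 0.05 there were 0 members, against 790 genes or 3.22% of all tested (1.5% higher and 1.72% lower in the morphine group). The groups did not overlap for 0 of the 8 members, and for 0.0896% of all genes. The mean log2 level of 4 tested members was higher in the morphine group and that of 3 was lower, where 50.8% of all genes were lower. The median difference was 0.16 over the members and -0.00 over all genes. In the marker lists of other cells 0 genes passed, and the lists with all of at least 2 tested genes on one side are given without a test. The mean was lower in the morphine group for all 8 serotonergic genes (median -0.64), all 5 oligodendrocyte genes (-0.14) and all 5 neuronal genes (-0.07). It was higher for both Edinger-Westphal genes (0.86), all 4 choroid plexus genes (0.72), both forebrain cholinergic genes (0.09) and both ependymal genes (0.04). Of these lists, only the serotonergic one was fitted as a term beside the groups, with 4 of its genes.

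For Chat the difference was 0.57 ± 0.99 (95% interval -1.58 to 2.72, limma adjusted p 0.9998), although the means on the TPM scale were alike. The interval is wide in both directions, so these data bound a difference of Chat only loosely. The difference was 0.54 ± 0.99 for Slc18a3 and 0.21 ± 0.80 for Slc5a7. Ache, at -0.01 ± 0.07 (interval -0.15 to 0.14), had the narrowest interval of the set. The values were -0.02 ± 0.31 for Isl1, 0.16 ± 0.29 for Prph and -0.29 ± 0.22 for Calca (interval -0.76 to 0.17). For Phox2a, fitted without the filter on low levels, the difference was 0.12 ± 0.12. Exact two-sided permutation tests over the 924 assignments of the libraries gave p between 0.249 (Calca) and 0.942 (Isl1), where the smallest possible p is 0.00216.

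The sign of the transporter differences turned with the 3 libraries that stood apart, of which 2 are saline-sired and 1 is morphine-sired. Over the other 9 libraries, each of the 7 tested members was lower in the morphine group, with a median difference of -0.27 against 0.01 over all genes. Chat was then at 27.9 ± 3.43 (SD, n = 4) and 22.5 ± 7.95 (SD, n = 5), a difference of -0.35 ± 0.20 (interval -0.80 to 0.10). Slc18a3 was at -0.38 ± 0.24, Slc5a7 at -0.45 ± 0.33, Isl1 at -0.27 ± 0.20, Prph at -0.06 ± 0.20, Calca at -0.23 ± 0.27 and Ache at -0.10 ± 0.06. No member had an unadjusted p under 0.05 in this fit, in which 1 gene of the series (0.00409%) passed at an adjusted p of 0.05 and 3% had an unadjusted p under 0.05. Leaving out saline-sired 1 alone moved Chat to -0.08, and leaving out morphine-sired 1 alone moved it to 1.14. With a score of 4 serotonergic genes as a term, over all 12 libraries, the difference was 1.25 ± 0.72 for Chat, 1.24 ± 0.69 for Slc18a3, 0.79 ± 0.53 for Slc5a7 and 0.37 ± 0.19 for Prph, and 0 members passed.

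**Figure D2:**
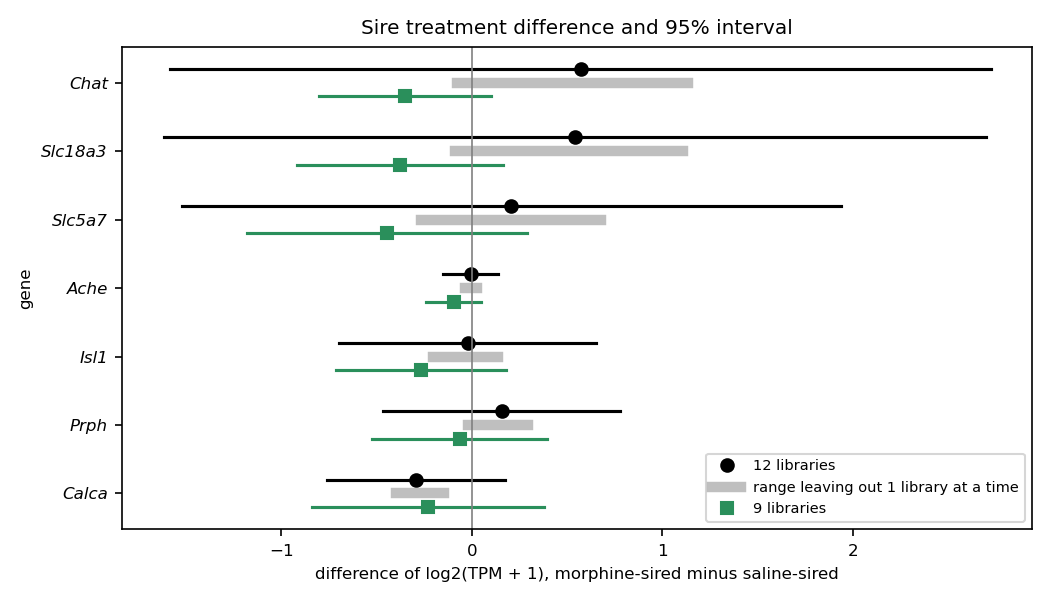
Difference of log2(TPM + 1) between the groups (x axis) for the 7 tested genes (y axis), with 95% intervals, over 12 libraries (circles) and over 9 (squares); grey bars span the values when 1 library is left out at a time. Every interval holds 0, and those of Chat, Slc18a3 and Slc5a7 are much wider over 12 libraries than over 9.

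Single transcripts were compared next, since StringTie divides the reads of a gene among its models. Of 17 transcripts of the members, 14 reached a mean of 0.5 TPM and 0 passed with limma, where 1 of the 50419 transcripts tested in the series (0.00198%) did. None of the 14 had an unadjusted p under 0.05 (smallest 0.104), against 3.77% of all transcripts. Without the 3 libraries, 0 transcripts of the members passed after adjustment. Chat was carried by a model of 16 exons, at 90.3% to 100% of its level in all libraries but morphine-sired 6, where a shorter model of 14 exons held 68.6%. For Slc5a7, an assembled model of 8 exons held 49.6% to 75.2% of the level in 9 libraries. It held 10.1% in saline-sired 5 and 0% in morphine-sired 2 and 4, where annotated models held most of the level. In saline-sired 1, saline-sired 6 and morphine-sired 1 both annotated models were listed at 0, so the level there rests on assembled models alone.

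Prph lay almost wholly on an assembled model of 9 exons whose end is 7 bases short of the annotated one (140746190 against 140746197 on chromosome 7, Rnor_6.0). This model is 1749 bases long, against 1753 from the same start, so it also differs inside. It took 85.2% to 94.6% of the level, so the annotated transcript alone would show Prph at 3.36 to 16.04 rather than 49.4 to 170. Calca produces calcitonin messenger RNA when its transcript ends early at the calcitonin exon and CGRP messenger RNA when that exon is skipped. The annotated model of 4 exons, which ends early, held at most 4.71% of the level and was listed at 0 in 5 libraries, while the pair of 5-exon models held the rest. Ache was split between a 5-exon model, at 47.0% to 74.0%, and a 3-exon model with the remainder. A further assembled model at 20.5 to 48.2 TPM spans Ache and its neighbour Ufsp1 on chromosome 12 and is not counted in the level of Ache.

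**Figure D3:**
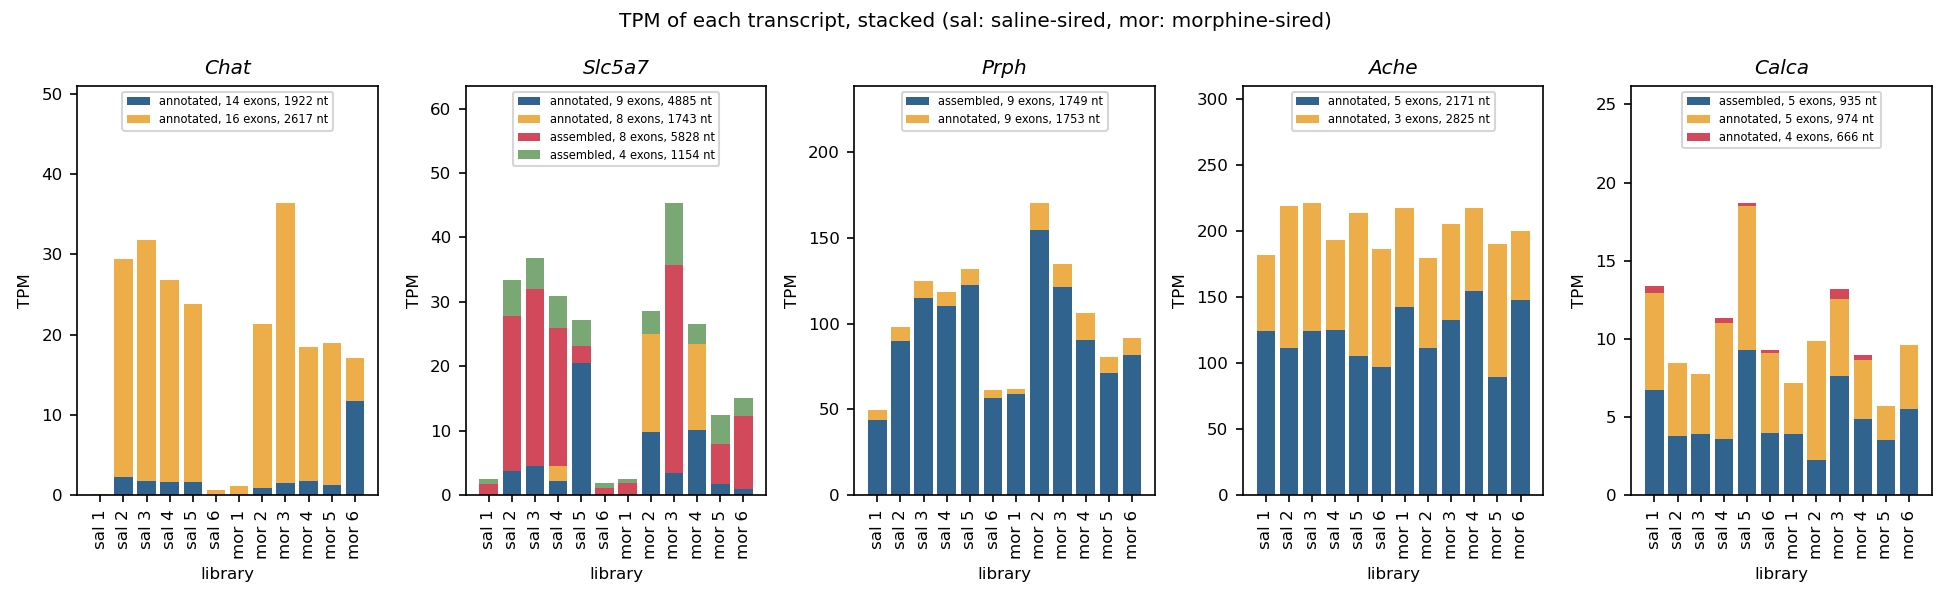
TPM (y axis) of each transcript of Chat, Slc5a7, Prph, Ache and Calca, stacked for each library (x axis), coloured by model with its exon number and length. The 16-exon model of Chat dominates except in morphine-sired 6, and the assembled model dominates Prph in every library.

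Because the libraries fell into 2 clusters in Chat, relations between genes were computed within the 9 libraries with high levels, on log2(TPM + 1), for 14 genes against Chat, of which 7 are the other members and 7 were chosen after their values were seen. Slc18a3 followed Chat most closely, with Pearson's r 0.956 (exact permutation p 0.00011, adjusted over 14 relations 0.00127) and Spearman's rho 0.983 (exact p 4.96e-05, adjusted 0.000694). Without the 2 libraries farthest from the median of Chat (morphine-sired 3 and 6) r was 0.955. Isl1 gave r 0.925 (exact p 0.000546, adjusted 0.00191), rho 0.8 (exact p 0.0138, adjusted 0.0323) and r 0.847 without those libraries. Slc5a7 gave r 0.846 (exact p 0.00189, adjusted 0.0053), rho 0.933 (exact p 0.00075, adjusted 0.00262) and r 0.714. The other members did not pass. Phox2a had r 0.695 (exact p 0.0354, adjusted 0.0707), rho 0.6 (exact p 0.0968, adjusted 0.151) and only 0.259 without the 2 libraries. For Prph r was 0.401 (exact p 0.284) and rho 0.5 (exact p 0.178), for Ache 0.359 (exact p 0.337) and 0.4 (exact p 0.291), and for Calca 0.269 (exact p 0.494) and 0.183 (exact p 0.644). The points share the dissection and the depth of each library, so these values describe how the genes vary together and not how they act. The 9 libraries mix 4 saline-sired and 5 morphine-sired rats, and the permutations ran over all 9 without regard to group. A difference between the groups shared by 2 genes would thus enter r and its p, and its part was not tested. The adjustment over 14 relations includes Lhx4, Calcb and Uts2, chosen for their likeness to Chat in libraries that include these 9. The adjusted p of the other relations may thus be too small.

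Among 15213 genes with a symbol and a mean of at least 1 TPM, the 5 whose pattern over the 12 libraries was most like that of Chat were Lhx4 (r 0.960), Calcb (0.960), Epb41l1 (0.957), Uts2 (0.955) and RGD1560015 (0.954). Within the other 9 libraries r was 0.939 for Lhx4, 0.944 for Calcb, 0.578 for Epb41l1, 0.781 for Uts2 and 0.141 for RGD1560015. These genes were chosen for their likeness in the same libraries, so no p is given. Lhx4, a LIM homeobox gene of motor neuron development, was at 0.177 or less in those libraries and at 1.98 to 9.84 in the others. Calcb, which encodes the beta form of CGRP, was at 0.834 or less and at 4.38 to 16.0, while its paralog Calca had no such gap. Uts2, which encodes the peptide urotensin II of motor and tegmental cholinergic neurons, was listed at 0 in saline-sired 1 and 6, was at 0.392 in morphine-sired 1 and reached 2.16 to 14.1 elsewhere. Epb41l1 (126 to 165) and RGD1560015 (180 to 231) spanned a narrow range of levels. Within the 9 libraries and without morphine-sired 3 and 6, r was 0.883 for Lhx4, 0.906 for Calcb and 0.768 for Uts2.

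Other genes of acetylcholine handling were compared from a list of 13, all tested, of which 0 passed in either direction (7 with a higher and 6 with a lower mean in the morphine group, median 0.01). Slc10a4, which encodes a synaptic vesicle protein of cholinergic and monoaminergic neurons, was at 0.716 to 4.72 in the 3 low libraries and at 18.6 to 160 in the others. Its highest libraries were saline-sired 2 (160), morphine-sired 2 (114) and saline-sired 3 (88.4), which are also those with most Tph2. Acly, which encodes the enzyme that makes cytosolic acetyl-CoA, was at 171 to 203 in the low libraries and at 234 to 339 in the others. Lynx1 (367 to 441), a modulator of nicotinic receptors, the choline transporter gene Slc44a1 (96.1 to 157) and the butyrylcholinesterase gene Bche (2.58 to 5.14) showed no such gap. In all, 2 of the 13 genes (Slc10a4 and Acly) were lower in each of the 3 libraries than in any other, and 11 were not. The share of all tested genes with such a gap is not given here, so this count cannot be set against it.

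Of 20 other motor neuron genes, 19 were found and 13 tested, and 0 passed with or without the 3 libraries (over all 12, 4 with a higher and 9 with a lower mean in the morphine group, median -0.08). Of the 13, 1 had an unadjusted p under 0.05, where 3.22% of all genes had. This was the heavy neurofilament gene Nefh, at 747 ± 286 in the saline group and 462 ± 236 in the other (SD, n = 6 each, log2 difference -0.75 ± 0.34, limma unadjusted p 0.0477, adjusted p 0.9998). Its unadjusted limma p was 0.0546 with no filter, 0.0512 with a mean of at least 5 TPM and 0.0562 without the variance trend. It was 0.0485 with a pseudocount of 0.1, 0.0401 with quantile normalization and 0.0899 with the serotonergic score. With 1 library left out it was 0.0137 to 0.111. The difference was -0.95 without the 3 libraries (limma unadjusted p 0.0331) and -1.58 on annotated transcripts (limma unadjusted p 0.0278). The other neurofilament genes of the list, Nefm (-0.10 ± 0.37, limma unadjusted p 0.790) and Nefl (-0.08 ± 0.31, limma unadjusted p 0.789), showed no such difference. An unadjusted limma p under 0.05 was also found for 1 of 5 habenula and 1 of 5 neuronal genes. It was found for 2 of 4 microglia and 2 of 4 choroid plexus genes as well. Of the 13 genes, 5 (Lhx4, Calcb, Sncg, Esrrb and Ret) were lower in each of the 3 low libraries than in any other, and 8 were not. The share of all tested genes with such a gap is not given here, so this count is no trait of motor neuron genes. Outside this list, Epb41l1 (at most 132 in the low libraries, 146 to 165 in the others) had the gap too. So did RGD1560015 (at most 188, and 215 to 231). Sncg, which encodes gamma-synuclein, was at 95.9 to 139 in the low libraries and at 234 to 541 in the others, and the receptor gene Ret was at 23.6 to 32.9 and 35.6 to 70.9. Ranges overlapped for the homeodomain gene Nkx6-1 (6.56 to 14.3 in the low libraries and 5.51 to 18.9 in the others), the receptor gene Esrrg (25.9 to 33.1 and 26.7 to 43.7), the osteopontin gene Spp1 (86.2 to 189 and 151 to 861) and Chodl (1.79 to 5.37 and 4.97 to 13.7). Mnx1, a factor of spinal motor neurons, was listed at 0 in all 12 libraries, and Isl2 was at 0.156 to 0.592 in the low libraries and at 0 to 0.658 in the others.

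Several markers of other cell groups that share these genes were at or near 0. Hox genes, which mark hindbrain segments, were listed at 0 in all libraries for 5 of 7 genes and at most at 0.0674 for the others. The basal forebrain cholinergic genes Lhx8 and Gbx1 reached at most 0.0666 and 0.110. The noradrenergic genes Dbh and Slc6a2, of neurons that also use Phox2a, reached at most 1.02 and 0.187. The sensory neuron genes Runx3 (0 in all) and Scn10a (at most 0.218) were as low, while Pou4f1, a gene of sensory and midbrain neurons, was at 3.17 to 3.78 in the 3 low libraries and at 4.54 to 12.6 in the others. Of the 3 tegmental cholinergic genes, Nos1 was at 24.9 to 29.0 in the low libraries and at 20.2 to 49.0 in the others, and the tachykinin gene Tac1 at 29.4 to 82.2 and 57.8 to 137, both overlapping. Uts2, given above, had the gap.

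Genes of neighbouring nuclei varied along with the members only in part. The raphe gene Tph2, which encodes the enzyme of serotonin synthesis, was at 0.450 to 0.672 in the 3 low libraries and spread from 1.15 to 445 over the other 9. Morphine-sired 6 held Chat at 17.1 with Tph2 at 1.15. Within the 9 libraries r of Tph2 with Chat was 0.700 (exact p 0.0419, adjusted 0.0733) and rho 0.783 (exact p 0.0172, adjusted 0.0344). The peptide genes of the Edinger-Westphal nucleus, which lies beside the oculomotor nucleus, were far below the other 9 libraries only in saline-sired 6. In the other 2 low libraries they lay near the lower end of those 9. Ucn was at 106 in saline-sired 1, 86.7 in morphine-sired 1 and 10.5 in saline-sired 6, against 105 to 337 in the others. Cartpt was at 986, 979 and 155 in the same libraries, against 909 to 2355. Within the 9, Ucn had r 0.222 (exact p 0.594) and rho -0.133 (exact p 0.743) with Chat, and the dopamine transporter gene Slc6a3, at 2.88 to 103, had r 0.071 (exact p 0.86) and rho 0.217 (exact p 0.581).

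**Figure D4:**
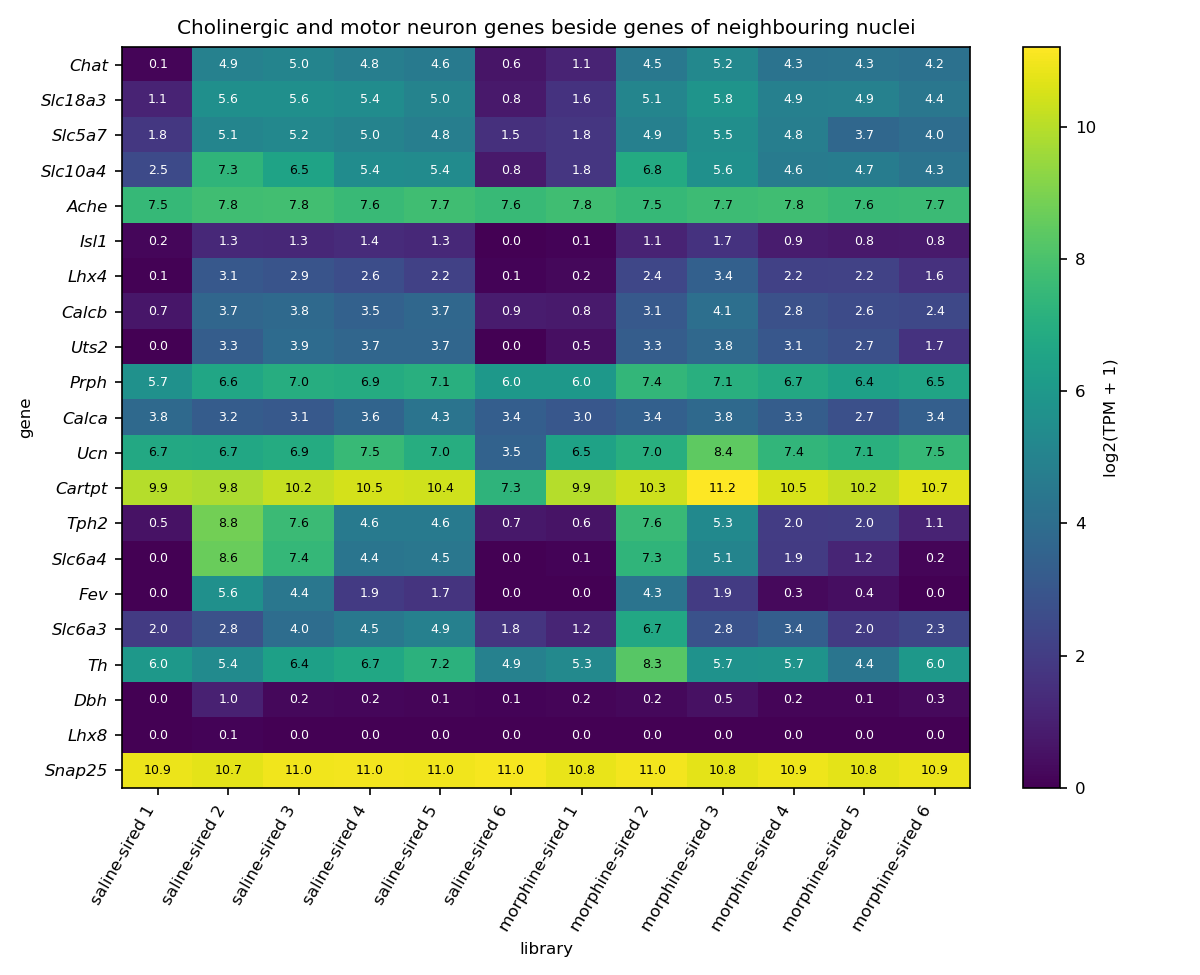
log2(TPM + 1) of 21 genes (y axis) in each library (x axis), printed in each cell. Columns of saline-sired 1, saline-sired 6 and morphine-sired 1 hold the 3 lowest values of Chat, Isl1, Lhx4, Uts2, Tph2 and Slc6a4, while Ucn and Cartpt are lowest in saline-sired 6.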

How the data were processed

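The authors deposited 1 file per library with the TPM, FPKM and coverage of 76232 transcripts (41063 annotated and 35169 assembled). Per the file headers, StringTie 1.3.6 estimated these values against a merged annotation. The submitters' processing notes name Trimmomatic 0.39, HISAT2 2.2.0, StringTie 2.1.2 and the build Rnor_6.0, so the StringTie versions differ. Strand and read layout are not given in the sources used here. From the deposited series table only the gene symbols were used, not its 12 columns of log2 values. TPM was summed per symbol within a locus, and assembled transcripts went to the symbol of a locus with only one. For genes averaging 0.5 TPM or more, log2(TPM + 1) was fitted in R 4.3.3 by limma 3.58.1 (trended eBayes, Benjamini-Hochberg adjustment), a scale that understates changes of low genes. The fit was tested on simulated data. Exact permutation tests used Python 3.11.15 and scipy 1.17.1. Depth was the median ratio of coverage to FPKM, and low genes are the least precise.

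A rule set which genes could be named: the members and their transcripts averaging 0.5 TPM or more, and the 5 genes most like each of Chat, Isl1, Prph and Calca. From each list it allowed up to 4 of the most abundant genes and any that passed. Not all of these list genes are named, and for some lists none is. All other list genes named were chosen after their values were seen. The 18 lists hold 106 genes, of which 103 were found and 84 tested; Gfra1, Pecam1 and Foxj1 were not analysed here. The members and lists were chosen with earlier results of these data known. Alternatives covered the pseudocount, the filter, scaling, transcripts summed, the variance trend, a serotonergic score and libraries left out.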

Additional observations from a re-analysis of the deposited data

Results flagged for a closer look

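Dixon's test for a single distant value was applied in 44 groups of 6 libraries, covering the members and those of their transcripts that were tested. It marked 4 transcript values and no gene value, where chance marks about 1 in 20 groups. The 14-exon model of Chat (ENSRNOT00000034283) was at 11.7 TPM in morphine-sired 6, against 0 to 1.80 in the other morphine-sired libraries. The annotated 9-exon model of Slc5a7 (ENSRNOT00000014548) was at 20.5 in saline-sired 5, against 0 to 4.56 in the rest of its group. The annotated 8-exon model of Slc5a7 (ENSRNOT00000078055) was at 2.33 in saline-sired 4 and listed at 0 in the other saline-sired libraries. The assembled 8-exon model of Slc5a7 (MSTRG.24557.1) was at 32.3 in morphine-sired 3, against 0 to 11.3. In these libraries the level summed over the gene lay within Dixon's limit.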

How the results depend on the processing

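Of 146 member differences over the alternatives run, 31 equal the reported value, since another filter or test leaves a difference unchanged, as does dropping assembled transcripts of a gene that has none. Of the other 115, 91 kept their direction and 24 reversed. Of the 146, 0 passed; the smallest unadjusted limma p was 0.0743 (Prph with the serotonergic score). Without saline-sired 1, saline-sired 6 and morphine-sired 1, Chat was -0.35, Slc18a3 -0.38, Slc5a7 -0.45 and Prph -0.064. With the serotonergic score Ache was 0.0086 and Isl1 0.19, and with a pseudocount of 0.1 Isl1 was 0.16. Leaving out 1 library at a time gave -0.076 to 1.14 for Chat, -0.087 to 1.11 for Slc18a3, -0.27 to 0.68 for Slc5a7, -0.037 to 0.026 for Ache, -0.20 to 0.14 for Isl1, -0.018 to 0.30 for Prph and -0.40 to -0.15 for Calca. Over all genes, 1 passed without the 3 libraries, and 0 to 1 with 1 library left out (1 without saline-sired 4 and 1 without saline-sired 6, 0 otherwise). The cause was not tested. Isl1 and Phox2a rest on few reads. No paired analysis was possible because the labels give no replicate numbers shared between the groups.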

Other observations

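Other members had different companions among the 15213 genes compared by Pearson's r of log2(TPM + 1) over the 12 libraries. Those most like Isl1 were Calcb (r 0.982), Lhx4 (0.961), the glutamate receptor subunit gene Grin3b (0.954), the transcription factor gene Bcl6 (0.954) and Lcp1 (0.953). Grin3b was at 5.10 or less in saline-sired 1, saline-sired 6 and morphine-sired 1 and at 5.85 to 11.7 in the others. Prph was followed most closely by Hpse, which encodes heparanase (r 0.979), the lysosomal protease gene Ctsd (0.971), Gas6 (0.961), the galectin gene Lgals1 (0.959) and Elovl5 (0.956). Lgals1 ran up to 87.6 in the 3 low libraries and from 112 to 437 in the others. Calca had no gene as close: the highest r were 0.894 for Fstl3, 0.846 for AABR07049085.1, 0.845 for Fam172a, 0.826 for Dock8 and 0.814 for the sodium channel gene Scn7a. The genes were chosen for their r, so no p is given.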
